A study of Arabidopsis thaliana with 12 samples.

Results

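The comparison set 3 arrays of mbd11 mutant seedlings against 3 arrays of mbd6 mutant seedlings, 6 of the 12 arrays in the series. The plants were 10-day-old whole Arabidopsis thaliana seedlings of ecotype Col-0, raised on MS medium, with a T-DNA insertion in AtMBD11 or in AtMBD6. The other 6 arrays, 3 of wild type and 3 of mbd4 T-DNA mutants, are given only where they show on which side a difference lay. Each array is labelled a biological replicate. Not given in the sources used here are the insertion alleles, the number of lines behind each mutant, the number of seedlings per sample and any scan or labelling batches. No probe set is assigned to MBD6 or MBD11 alone, and their transcripts were not analysed here, so the labels were not checked against the mutated genes.

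MBD proteins are named for the methyl-CpG-binding domain, a fold that in several family members recognises methylated cytosine in DNA. In Arabidopsis, MBD6 belongs to the members with methyl-CpG binding and localises to heterochromatic chromocentres in the nucleus. MBD11 is less well characterised, and reduced MBD11 activity has been linked to altered leaf and flower development. The comparison addressed how seedlings labelled mbd11 mutant differ in transcript levels from seedlings labelled mbd6 mutant.

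Values are log2 intensities of ATH1 probe sets after quantile normalization, so levels are compared between arrays for 1 probe set and never between genes. Each change is mbd11 minus mbd6 on the log2 scale, with the standard error (SE) of limma's fit, and n = 3 in each genotype. Adjusted p-values are limma's, two-sided, with Benjamini-Hochberg adjustment over all 22746 probe sets. A nuclear gene was called when the adjusted p was under 0.05 both with all 6 arrays and without mbd11 replicate 2, in the same direction. The probe assignments covered 13264 nuclear genes, and these are the genes called measured here.

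The mbd11 arrays stood apart from the mbd6 arrays in ways that touch every result. Correlations over all probe sets were 0.900 to 0.954 between mbd11 and mbd6 arrays, against 0.994 to 0.997 among the mbd6 arrays. Replicate 2 correlated with the other mbd11 replicates at 0.936 and 0.940, while these correlated at 0.980 with each other. The median SD of a probe set was 0.331 in mbd11 and 0.117 in mbd6. The 3' minus 5' difference, an RNA quality measure averaged over actin, GAPDH and ubiquitin control probe sets, was 2.46, 2.42 and 2.88 in mbd11 and 1.93, 1.86 and 1.85 in mbd6. It was also 2.69 in mbd4 replicate 3 and at most 2.04 in the remaining arrays. Seedling identity rested on few markers: the shoot genes PRK, RCA, LHCB4.1 and LHCB4.2 had mean levels between 11.28 and 13.41 in both mutants. The root genes EXPA7, EXPA18 and LBD16 were between 4.55 and 6.84. None of the listed seed or floral markers was measured, and genes outside the lists were not examined as markers. All 4 shoot markers were lower in mbd11, with a median change of -0.53 and 2 calls, and all 3 root markers were higher, with a median of 0.69 and no call, and the part of tissue proportions in the results below was not tested. Whole seedlings were profiled, so fewer cells of a type and less RNA per cell cannot be told apart.

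Of the 22746 probe sets, 4411 were called (19.4%), with 2224 higher in mbd11 (9.78%) and 2187 lower (9.61%). Without mbd11 replicate 2 the number was 7579 (33.3%). Among the 13264 nuclear genes, 2364 were called with and without that replicate (17.8%), 1435 of them higher in mbd11 (10.8%) and 929 lower (7%). All 2364 had 3 mbd11 values outside the range of the 3 mbd6 values, as did 40.4% of all measured nuclear genes, and 1245 differed at least 2-fold. The median change was 1.01 among the genes that rose, -1.05 among those that fell and 0.07 over all nuclear genes measured. The count depended on the mbd6 arrays: leaving out replicate 1, 2 or 3 of mbd6 left 852, 828 or 753 nuclear genes. The sizes of change depended on them less. Of 131 called genes among the largest changes, list members and genes against the length trend, none moved over 1.5 times in these fits. No nuclear gene called with all 6 arrays lost its call without mbd11 replicate 2, and 1797 were called only without it. At the threshold, AT4G38930 lay just inside, with a change of 0.49 (adjusted p 0.0499), and AT5G14830 just outside, with a change of 0.67 (adjusted p 0.050).

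Wild-type arrays, which the fit did not use, lay nearer to mbd6 for most called genes. For 2066 of the 2364 called genes the wild-type mean was nearer to mbd6 than to mbd11, and for 298 it was nearer to mbd11. It fell between the mutants for 1411. The same counts were not made over all measured nuclear genes, so they are not shown to be particular to called genes. The 298 include some of the largest differences described below, among them the iron-related genes and PDF1.2.

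Gene length went with the direction of the change. Genes higher in mbd11 had a median span of 1489 bases in the RefSeq table of TAIR10.1, genes lower in mbd11 a median of 2841 and all measured nuclear genes 2107. In the shortest of 10 length classes, 78 to 897 bases, 219 of 1332 genes rose (16.4%) and 4 fell. In the longest class, 4199 to 26499 bases, 52 of 1326 rose (3.92%) and 172 fell (13%). Most short genes had low signal, and among the 299 of the shortest class with a mean level of at least 5, 186 rose (62.2%). In every length class the shares called were higher among genes of that level. The shares given for gene lists below are over all genes of the same length, dim ones included. Each array was also summarised by how far its shortest class of genes lay from its longest class, as median deviations from the mean of all arrays. That value was 0.23, 0.34 and 0.22 in mbd11 and between -0.13 and -0.09 in the other 9 arrays. Values from which each array's length trend was removed gave 1986 called nuclear genes, and 1770 of the 2364 remained called in the same direction. The part of RNA quality or of gene length in the results below was not tested.

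**Figure D1:**
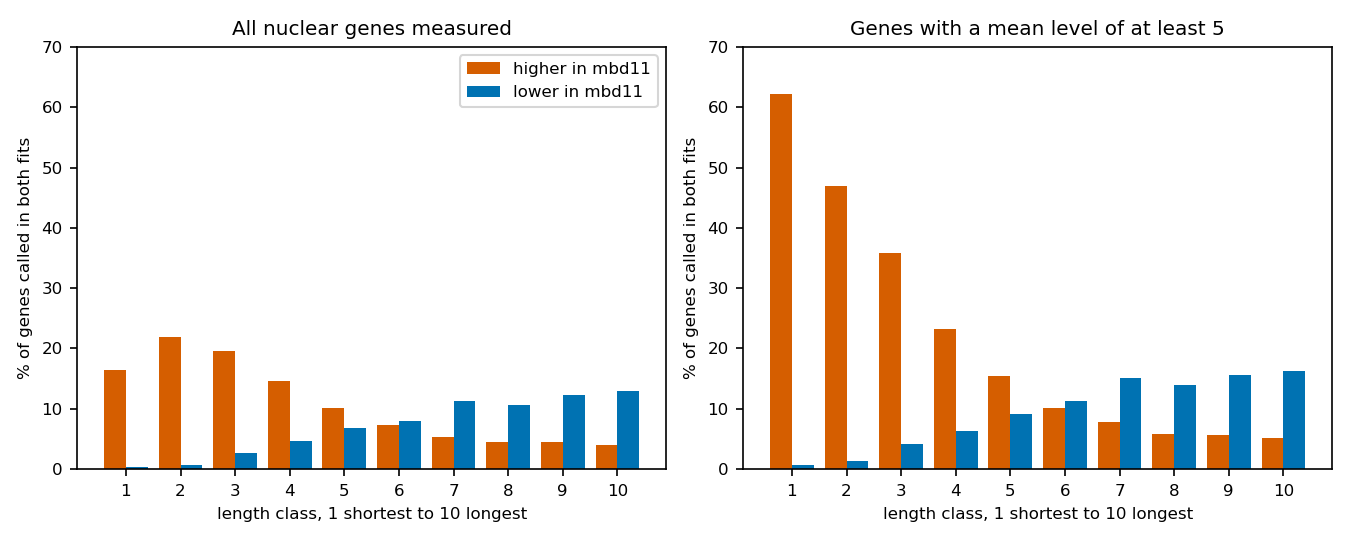
Percent of nuclear genes called higher (orange) or lower (blue) in mbd11 than in mbd6, in 10 classes of gene span from shortest (1) to longest (10), for all genes measured (left) and for those with a mean level of at least 5 on the log2 scale (right). The share of genes that rose declined with length from the second class on, in both panels, and from the first class when dim genes were left out, while the share that fell was 0.30% in the shortest class and 13% in the longest.

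**Figure D2:**
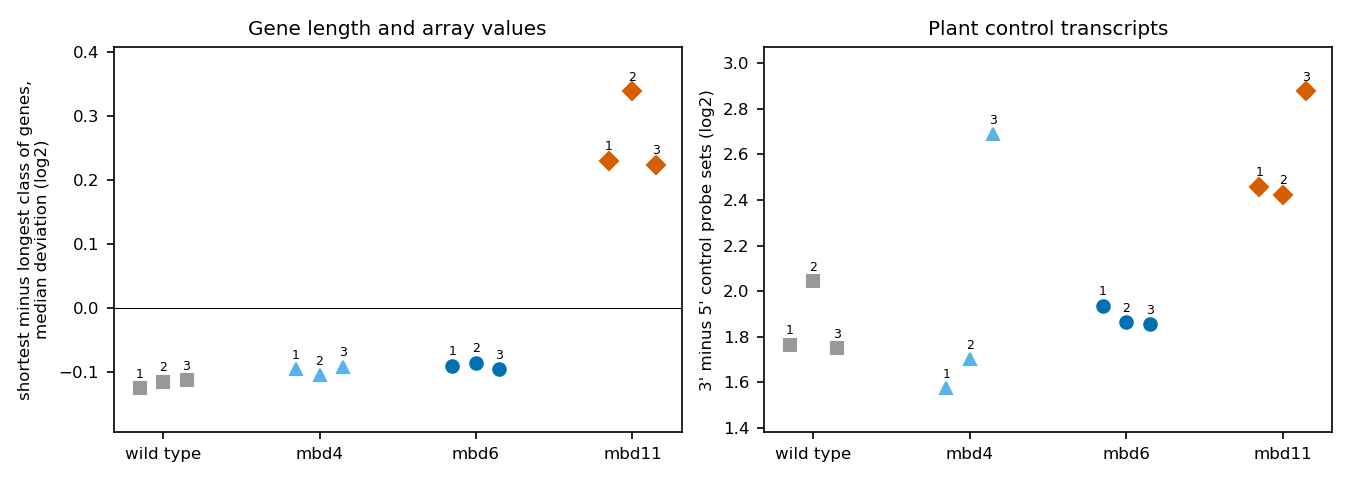
Left, median deviation of the shortest class of genes minus that of the longest class, in log2 units, for each array, with replicate numbers. Right, mean 3' minus 5' difference of 3 plant control transcripts in log2 units. The mbd11 arrays were the highest 3 on the left, and on the right mbd4 replicate 3 lay among them at 2.69.

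The largest rises held genes that the annotation used here names by locus only, an iron-deficiency transcription factor and a signalling peptide. AT1G47400 had levels of 7.38, 6.66 and 6.57 in mbd6 and 11.32, 9.61 and 11.25 in mbd11, a change of 3.86 (SE 0.48, adjusted p 0.00333), or 14.5-fold. The mbd11 levels were close to wild type, at 10.92, 11.22 and 11.04, so for this gene it was mbd6 that lay apart. AT3G02480 was 3.92, 3.75 and 3.85 in mbd6 and 8.24, 7.73 and 7.08 in mbd11 (change 3.84, SE 0.29, adjusted p 0.00131). Here mbd11 lay apart, since wild type was at 4.65 to 5.17. AT1G73120 was 5.09, 5.34 and 5.44 in mbd6 and 9.28, 8.89 and 8.89 in mbd11 (change 3.73, SE 0.19, adjusted p 0.000961). Wild type, at 7.24 to 7.47, fell between the mutants.

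The rest of the 12 largest rises ran from 2.45 to 3.40. RALFL27, one of the RALF-like peptides described below, was 4.39, 4.54 and 4.61 in mbd6 and 7.29, 7.93 and 6.80 in mbd11. AT1G15010 was 5.08, 5.08 and 4.92 in mbd6 and 8.03, 7.39 and 7.78 in mbd11, with wild type at 4.62 to 5.04. AT3G62950 rose by 2.71, AT2G37870 by 2.67, AT4G25780 by 2.54, AT1G62510 by 2.46 and AT2G01300 by 2.45, and in none did the mutants overlap. AT3G01570 had the most uneven mbd11 values, 7.63, 5.20 and 6.83 against 3.89 to 4.19 in mbd6 (change 2.52). Its call was lost without any single mbd6 array, without mbd11 replicate 3 and in 2 other alternatives, with an adjusted p of at most 0.0844. The other 11 kept their call under every alternative tried.

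The largest falls included a chloroplast protein, a cell wall peroxidase and an expansin. FZL, a dynamin-like GTPase of chloroplasts that shapes thylakoids, was 6.6, 6.61 and 6.43 in mbd6 and 3.86, 3.58 and 3.79 in mbd11, a change of -2.81 (SE 0.16, adjusted p 0.00125). Prx37, a secreted class III peroxidase, was 8.59, 8.56 and 8.48 in mbd6 and 4.28, 5.67 and 6.41 in mbd11. EXPA4, an expansin that loosens cell walls, was 8.76, 9.69 and 9.57 in mbd6 and 6.99, 6.67 and 6.48 in mbd11, a change of -2.63 (SE 0.28, adjusted p 0.00234). AT4G16260 was 11.32, 10.80 and 10.94 in mbd6 and 8.03, 8.04 and 7.72 in mbd11. For Prx37 and AT4G16260 wild type was at 6.13 to 6.31 and 8.34 to 8.37, nearer to mbd11, and mbd4 was nearer to mbd6.

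Other falls were AT5G13030 (-3.98), AT2G37480 (-3.37), AT4G32020 (-3.23), AT2G25760 (-2.85), AT4G16490 (-2.83), AT5G01010 (-2.81), ATATH8 (-2.68) and AT5G24690 (-2.57). AT5G01010 was not called without any one mbd6 array or with a floor of 4, with an adjusted p of at most 0.0621, and the other 11 of the 12 kept their call under every alternative. With the 3' minus 5' difference as a covariate in a fit on all 12 arrays, several of these falls were over 1.5 times smaller: AT5G24690 changed by -1.03, AT4G16490 by -1.57, ATATH8 by -1.53 and AT5G01010 by -1.75. The covariate's slope is set within genotypes, where the difference varied most in mbd4 (1.57, 1.70 and 2.69). Mbd4 replicate 3 therefore weighs heavily in that fit, and its own levels are not a separate observation. In 10 of the 12 largest falls, all but AT4G16260 and Prx37, mbd4 replicate 3 was the lowest of the 9 arrays that are not mbd11. That was so for 32.4% of the 929 genes that fell and for 17.1% of all nuclear genes measured. Mbd4 replicate 3 was the array outside mbd11 with the highest 3' minus 5' difference, and its AT5G13030 level was 6.55 against 8.33 and 8.11 in the other mbd4 replicates.

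**Figure D3:**
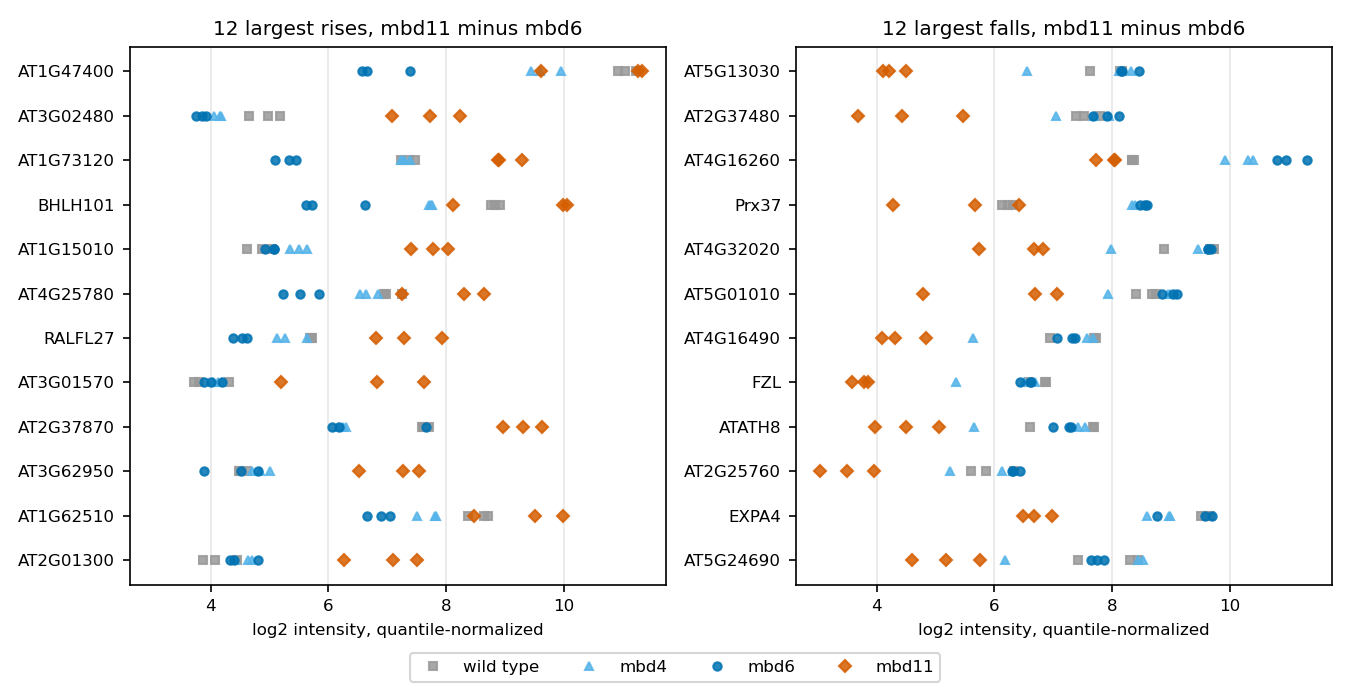
Quantile-normalized log2 intensity on each of the 12 arrays for the 12 largest rises (left) and 12 largest falls (right), 1 symbol per array. Levels of mbd11 and mbd6 did not overlap for any of the 24 genes. For AT1G47400, BHLH101, Prx37 and AT4G16260 the wild-type levels lay near mbd11, and a single mbd4 array, replicate 3, lay below the other 8 arrays for 10 of the falls.

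Each of the largest falls is shown by the gene's called probe set with the largest change. Other probe sets of the same gene therefore tend to fall less, by that choice alone. AT5G13030 had another, brighter probe set with a change of -0.94 that was not called (adjusted p 0.145). The brighter probe set of AT2G25760 changed by -0.11 (adjusted p 0.690), that of AT2G37480 by -1.37 and that of AT5G24690 by -0.71, the last 2 called. Of the 145 measured nuclear genes with more than 1 probe set, 37 had one that fell, and all probe sets were called in 6 of these. The larger fall was on the dimmest probe set in 25 of the 37. Among the 12 genes with a probe set that rose, all probe sets were called in 1, and the larger rise was on the dimmest in 1. No gene had probe sets called in opposite directions. Where the probe sets lie along each transcript was not analysed here.

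Iron-deficiency genes were among the largest differences. Arabidopsis answers low iron with a cascade of basic helix-loop-helix transcription factors, in which BHLH101 is induced in shoots and roots and PYE (POPEYE) restrains part of the response in the root. BHLH101 was 6.62, 5.72 and 5.62 in mbd6 and 10.05, 8.12 and 9.99 in mbd11, a change of 3.40 (SE 0.54, adjusted p 0.00696). PYE was 5.87, 5.89 and 5.67 in mbd6 and 8.04, 7.01 and 7.49 in mbd11, a change of 1.70 (SE 0.27, adjusted p 0.00633). The wild-type means of 8.83 for BHLH101 and 7.89 for PYE were nearer to mbd11 than to mbd6. Replicate 2 had the lowest mbd11 level of both genes and of AT1G47400.

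Of the 5 measured members of the iron list, these 3 rose and none fell. ILR3, a bHLH partner of PYE, changed by -0.33 (adjusted p 0.244), and BGLU42, a beta-glucosidase active in iron-starved roots, by -0.07 (adjusted p 0.851). The list median was 1.70, against 0.07 over all nuclear genes. All 3 calls remained with the length trend removed. In the length classes of the list's members, 11% of genes rose.

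All 5 measured members of the cold and dehydration list rose, with a median change of 1.44. LEA4-5, a late embryogenesis abundant protein that accumulates on water loss, was 4.86, 4.6 and 4.84 in mbd6 and 6.74, 7.74 and 6.46 in mbd11, a change of 2.21 (SE 0.33, adjusted p 0.00541). COR15A, a chloroplast protein that protects membranes during freezing, was 7.38, 6.85 and 7.01 in mbd6 and 9.03, 8.54 and 8.80 in mbd11, a change of 1.71 (SE 0.21, adjusted p 0.00323). COR47, a dehydrin, went from 9.69 ± 0.05 to 11.13 ± 0.09 (mean ± SD, n = 3 each), without overlap (change 1.44, SE 0.15, adjusted p 0.00208). In wild type COR15A had a mean of 8.12, between the mutants, while COR47 at 9.90 was close to mbd6. The smaller rises of COR15B (1.1) and LTI30 (0.70) were not called without mbd6 replicate 2 or 3, and LTI30 also not without replicate 1 or in 3 other alternatives, with adjusted p-values of at most 0.0638 and 0.203. LTI30 changed by 0.34 with the length trend removed. In the length classes of the list's members, 14% of genes rose in the main fit, against all 5 members. With the length trend removed 4 of the 5 calls remained.

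RALF-like genes encode small secreted peptides that bind receptor kinases of the FERONIA group at the cell surface and raise the pH of the cell wall space. Of 10 measured, 5 rose and none fell. RALFL32 was 8.47, 8.57 and 8.36 in mbd6 and 10.08, 10.63 and 10.28 in mbd11, a change of 1.86 (SE 0.19, adjusted p 0.00208). RALFL31 was 7.02, 7.20 and 7.26 in mbd6 and 8.80, 8.98 and 8.75 in mbd11 (change 1.68, adjusted p 0.00175). RALFL24 rose by 1.39 and RALFL33 by 1.23, and with RALFL27 at 2.83 all 5 had wild-type means nearer to mbd6. The list median was 0.87. These are short genes, with a median span of 809 bases, and 18.4% of genes in their length classes rose. Among genes with a mean level of at least 5, 62.2% of the shortest class and 46.9% of the next rose. All 5 calls remained with the length trend removed and under every alternative tried. RALF-like genes were chosen as a family after their annotation was seen.

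Antimicrobial peptide genes moved both ways, defensins among them. PDF1.2, the plant defensin widely used as a marker of joint jasmonate and ethylene signalling, was 11.01, 11.78 and 11.73 in mbd6 and 9.47, 8.84 and 9.21 in mbd11, a change of -2.33 (SE 0.27, adjusted p 0.00286). PDF1.2b changed by -2.26 (adjusted p 0.00422) on a probe set that may detect related transcripts, so its signal may include PDF1.2. OSM34, an osmotin-like protein, fell by 1.53 (SE 0.25, adjusted p 0.00696), from 11.98, 11.62 and 11.84 to 9.98, 10.79 and 10.09. Wild type was lower still for all 3, at 7.78 to 7.91 for PDF1.2, and mbd4 was near mbd6 for PDF1.2 at 11.44 to 11.64.

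Other members of the same list went the other way. The defensin PDF1.4 was 4.24, 4.61 and 4.66 in mbd6 and 6.64, 6.88 and 6.42 in mbd11 (change 2.14, SE 0.20, adjusted p 0.00163). The thionin THI2.2 was 5.49, 5.87 and 5.89 in mbd6 and 7.84, 8.19 and 7.48 in mbd11 (change 2.08, SE 0.23, adjusted p 0.00259). PDF2.5, PDF2.1 and LCR68 rose by 1.72, 1.46 and 0.57. Their calls were lost in at least 2 of the fits without 1 mbd6 array, where the adjusted p-values reached 0.0807, 0.0524 and 0.166, and LCR68 changed by 0.21 with the length trend removed (adjusted p 0.368). THI2.1 changed by -1.03 (adjusted p 0.194). Of 11 measured members, 5 rose and 3 fell, and in their length classes 18% of genes rose and 0.617% fell. Their median span was 839 bases. Of genes in that length class with a mean level of at least 5, 62.2% rose and 0.669% fell.

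Among 16 measured genes that respond rapidly to touch and wounding, 6 rose and none fell, with a list median of 0.60. In their length classes 17.1% of genes rose. Their median span was 1338.5 bases, and of genes in that length class with a mean level of at least 5, 35.8% rose. PUB23, a U-box ubiquitin ligase induced by stress, was 5.75, 5.94 and 5.90 in mbd6 and 7.15, 6.77 and 7.12 in mbd11 (change 1.15, SE 0.17, adjusted p 0.00547), while PUB22 and PUB24 changed by -0.63 and -0.22 and were not called. AT4G27280 went from 10.69, 10.55 and 10.50 to 13.08, 12.15 and 13.26, and AT5G10695 from 7.64, 7.44 and 7.24 to 9.56, 10.04 and 9.43. CML38, CML23 and CML37, calmodulin-like calcium sensors, had changes of 0.28, 0.14 and -0.00128 and were not called. The 6 calls were AT1G15010, AT2G01300, AT4G27280, AT5G10695, AT1G05575 and PUB23, and all remained with the length trend removed and under every alternative tried. AT1G05575 rose by 1.34, and by 0.82 with the 3' minus 5' covariate. The wild-type means of AT4G27280 (9.11), AT5G10695 (6.58) and AT1G05575 (4.81) were below mbd6.

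Heat shock genes had 3 of 8 measured members higher and none lower, with a median of 1.31, against 16.8% of genes that rose in their length classes. Their median span was 1291.5 bases, and of genes in that length class with a mean level of at least 5, 35.8% rose. AT2G29500 was 6.0, 5.42 and 5.52 in mbd6 and 7.51, 7.07 and 7.43 in mbd11, and AT2G20560 was 5.93, 5.82 and 5.95 in mbd6 and 7.62, 7.73 and 7.23 in mbd11, changes of 1.69 and 1.62. AT5G51440 rose by 1.59, and its call was lost without any mbd6 array, without mbd11 replicate 3 and in 2 other alternatives (adjusted p at most 0.0799). HSA32, needed to keep heat tolerance after a prior heat exposure, changed by 1.22 and did not pass (adjusted p 0.0555). With the length trend removed 2 of the 3 calls remained.

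Low-oxygen genes showed 3 rises and 1 fall among 19 measured, with a median of 0.54. AT4G10270 rose by 1.76 (SE 0.29, adjusted p 0.00790), from 6.28, 6.21 and 6.26 to 7.45, 8.64 and 7.93. PDC2, a pyruvate decarboxylase of ethanol fermentation, fell by 0.85 (SE 0.21, adjusted p 0.0282). The calls of PDC2, AT4G24110 and AT4G17670 were each lost without any one mbd6 array, with adjusted p-values of at most 0.119, 0.142 and 0.178. AT4G17670 also lost its call with deposited values, median-centred values and the 3' minus 5' covariate (adjusted p 0.132, 0.0580 and 0.0518). In the length classes of the list 14.4% of genes rose, close to the list's own share, and 1 of the 3 rises remained with the length trend removed.

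Of 6 measured histone genes, 4 rose and none fell. HTR12, the centromeric histone H3, was 5.23, 5.27 and 5.09 in mbd6 and 6.83, 7.21 and 6.01 in mbd11, a change of 1.49 (SE 0.30, adjusted p 0.0152). The histone H2B genes HTB2, HTB1 and HTB4 were called with it, and HTB2 rose by 1.36 (adjusted p 0.00385), HTB1 by 1.28 and HTB4 by 0.63. HTB11, another H2B gene, and HIS1-3, a linker histone induced by drought, changed by 0.53 and 0.69 and were not called. The list median was 0.98, and in the length classes of its members 15.9% of genes rose. Their median span was 981 bases, and of genes in that length class with a mean level of at least 5, 46.9% rose. Of the 4, only HTB2 kept its call without each single mbd6 array, and the other adjusted p-values reached 0.0730 (HTR12), 0.0753 (HTB1) and 0.153 (HTB4). HTB4 changed by 0.40 with the 3' minus 5' covariate and by 0.33 with the length trend removed, and passed in neither. With the length trend removed 3 of the 4 calls remained.

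Genes of chlorophyll and plastid pigment synthesis fell in part. PORB, the light-dependent enzyme that turns protochlorophyllide into chlorophyllide, was 11.80, 11.47 and 11.44 in mbd6 and 9.46, 9.96 and 9.36 in mbd11, a change of -1.98 (SE 0.21, adjusted p 0.00242). HEME1 and HEME2, the uroporphyrinogen decarboxylases of the shared haem and chlorophyll route, fell by 1.33 and 1.1 (adjusted p 0.00400 and 0.00386). HEME2 was 9.75, 9.77 and 9.91 in mbd6 and 8.76, 8.68 and 8.70 in mbd11, and its wild-type mean was 10.19. CHLM, the methyltransferase of the magnesium branch, fell by 0.74 (adjusted p 0.0461), and its call was lost without any single mbd6 array, without mbd11 replicate 1 or 3 and in 3 other alternatives (adjusted p at most 0.191).

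HEMA2, HEMB1 and GSA1, which act earlier in the route, and the lycopene cyclase LYC changed by -0.01, -0.32, -0.32 and -0.51, and CHLI2 of magnesium chelatase by 0.40. None of these passed the test. Of 9 measured, 4 fell and none rose, with a median of -0.51, and all 4 calls remained with the length trend removed. In their length classes 8.27% of genes fell.

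Of 11 measured nuclear photosynthesis genes, 3 fell and none rose, with a median of -0.19, and in their length classes 4.64% of genes fell. The Calvin cycle kinase PRK changed by -0.67 (SE 0.18, adjusted p 0.0419), the ATP synthase subunit gene ATPC1 by -0.63 (SE 0.16, adjusted p 0.0300) and the antenna protein gene LHCB4.2 by -0.54 (SE 0.15, adjusted p 0.0434). All 3 calls were lost without any one mbd6 array, without mbd11 replicate 1 and under the replicate block, with adjusted p-values of at most 0.171, 0.136 and 0.179. LHCB4.2 also lost its call with the 3' minus 5' covariate (adjusted p 0.0900). With the length trend removed 2 of the 3 calls remained. RCA and LHCB4.1 changed by -0.51 each and were not called (adjusted p 0.110 and 0.0614).

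Of 5 measured gibberellin and brassinosteroid genes, 2 fell and none rose, with a median of -0.43, and in their length classes 8.54% of genes fell. GID1A and GID1B encode receptors of the hormone gibberellin. GID1A was 7.91, 7.79 and 7.78 in mbd6 and 6.12, 5.92 and 6.51 in mbd11, a change of -1.64 (SE 0.19, adjusted p 0.00303), and GID1B was 7.08, 6.88 and 7.28 against 5.70, 5.66 and 5.52, a change of -1.45 (SE 0.17, adjusted p 0.00285). The third receptor gene, GID1C, changed by -0.39 (adjusted p 0.261). The brassinosteroid-linked genes BRL1 and EXO of the same list changed by -0.43 and -0.26 and were not called. Both GID1 calls remained with the length trend removed and under every alternative tried.

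Among 9 measured tubulin and actin genes, 4 tubulin genes fell and 1 actin gene rose. TUB5, a beta-tubulin, was 9.69, 9.76 and 9.69 in mbd6 and 8.40, 8.16 and 8.47 in mbd11 (change -1.37, SE 0.15, adjusted p 0.00277). The alpha-tubulin TUA6 went from 10.73, 10.87 and 11.15 to 9.53, 9.54 and 9.89 (change -1.27, SE 0.19, adjusted p 0.00545). TUB9 and TUB1 fell by 0.92 and 0.86, and ACT11 rose by 0.86. All 5 calls remained with the length trend removed. The calls of TUB9, TUB1 and ACT11 were lost without any one mbd6 array, with adjusted p-values of at most 0.117, 0.134 and 0.0785. ACT11 also lost its call with values as deposited (adjusted p 0.0502). In the length classes of the list 9.87% of genes fell.

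All 3 measured class III peroxidases fell, against 8.65% of genes in their length classes. These secreted enzymes use hydrogen peroxide to cross-link or loosen cell wall polymers. Besides Prx37 at -3.09 (SE 0.48, adjusted p 0.00646), PRX52, which takes part in lignin formation, was 7.95, 7.60 and 7.56 in mbd6 and 6.19, 4.28 and 5.47 in mbd11, a change of -2.39 (SE 0.45, adjusted p 0.0118). PRXR1 was 13.33, 13.47 and 13.20 in mbd6 and 12.15, 12.17 and 12.15 in mbd11, a change of -1.17 (SE 0.15, adjusted p 0.00359). All 3 wild-type means, 6.23, 5.75 and 12.65, were nearer to mbd11. PRX52 lost its call without any one mbd6 array and with a floor of 4 (adjusted p at most 0.0604).

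Wall polysaccharide genes moved both ways, and their list medians, -0.08 for expansins and xyloglucan enzymes and -0.07 for cellulose and hemicellulose genes, changed sign with the scaling. Their counts of calls were close to those of other genes of the same length, of which 15% rose for the first list and 9.72% fell for the second. Among 27 measured of the first list, EXPA4 and EXPA9 fell and EXLA1, EXLA2, XTH18 and EXPA20 rose. EXLA1, an expansin-like gene, had levels of 7.42, 6.35 and 6.62 in mbd6 and 9.32, 8.14 and 9.13 in mbd11, with a wild-type mean of 5.41. Among 48 of the second list, 5 fell and 2 rose. GH9C2, a cellulase of the endoglucanase family, was 8.15, 8.58 and 8.68 in mbd6 and 6.83, 5.5 and 6.25 in mbd11 (change -2.28, SE 0.34, adjusted p 0.00560). CSLC5, of the family that makes the xyloglucan backbone, fell by 1.42 (adjusted p 0.00333), and COB, which orients cellulose microfibrils, fell by 1.08 (adjusted p 0.0114). The calls of COB, EXLA1, EXLA2, XTH18 and EXPA20 were lost in at least 2 of the 3 fits without an mbd6 array, with adjusted p-values of at most 0.0629, 0.0599, 0.0850, 0.0683 and 0.0579.

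**Figure D4:**
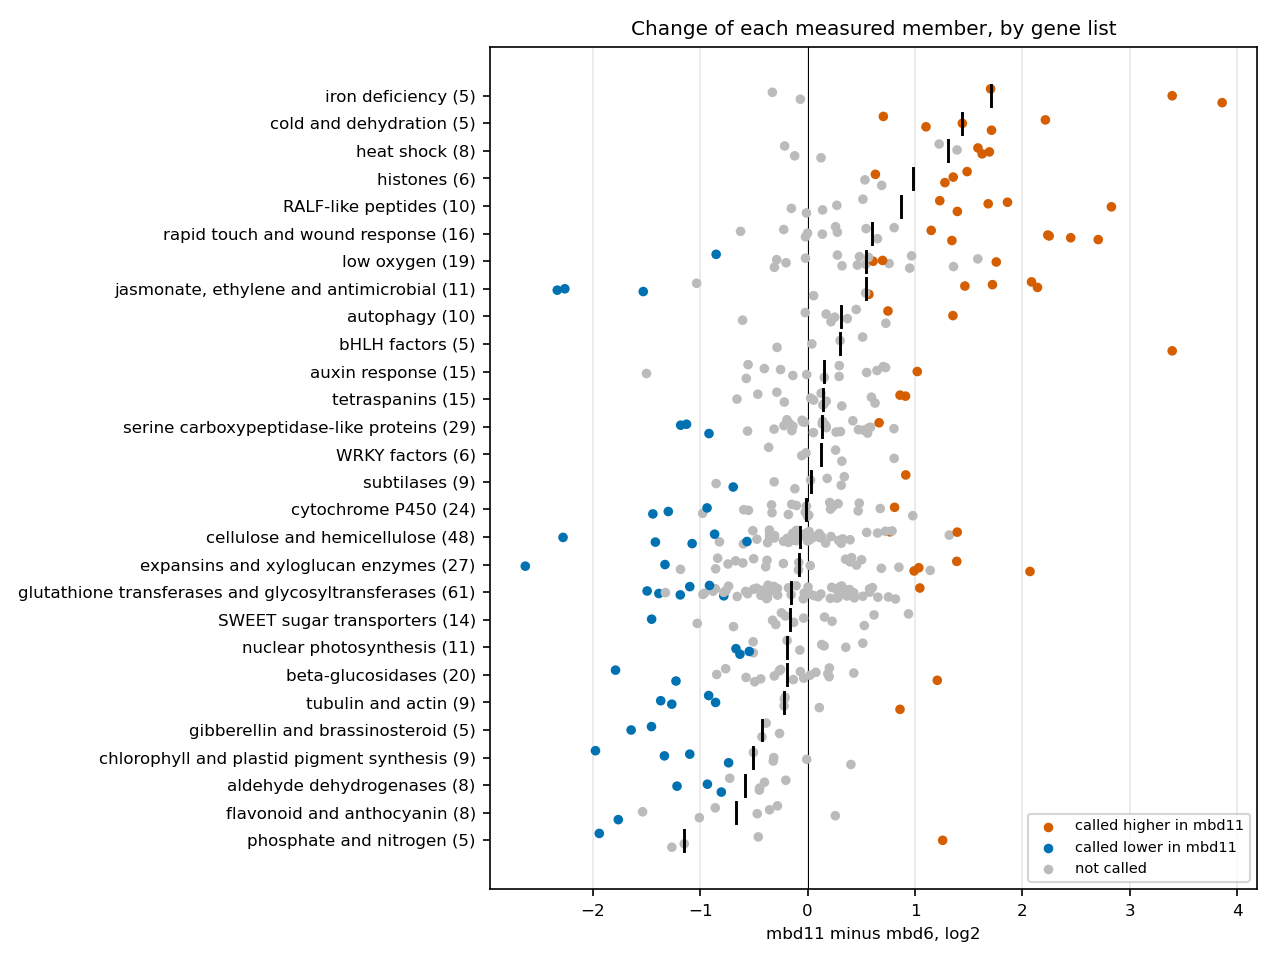
Change of each measured member, mbd11 minus mbd6 in log2 units, for lists with at least 5 measured members (number in brackets), ordered by median (black bar). Orange and blue points passed in both fits and grey points did not. All 5 cold and dehydration members lay above 0 and were called, while expansins, cellulose genes, cytochrome P450 genes and glycosyltransferases had called members on both sides.

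The remaining families gave few calls. Among 61 glutathione transferases and glycosyltransferases, 6 fell and 1 rose, against 5.43% that fell and 13.4% that rose in their length classes. Among 24 cytochrome P450 genes 3 fell and 1 rose, against 6.58% and 11%. Aldehyde dehydrogenases had 3 of 8 members lower, against 12.1% of genes in their length classes, with ALDH2C4, which makes ferulate and sinapate, at -0.93 (adjusted p 0.0185), ALDH22A1 at -1.22 and ALDH10A8 at -0.80. All 3 were lost without any one mbd6 array, with adjusted p-values of at most 0.0917, 0.127 and 0.10, and 2 of the 3 remained with the length trend removed. Autophagy genes had 2 of 10 higher, against 13.2% of genes in their length classes, both of the ATG8 family that coats the autophagosome. ATG8D rose by 1.35 (adjusted p 0.00294) and ATG8G by 0.75 (adjusted p 0.0362). ATG8G lost its call without any one mbd6 array (adjusted p at most 0.157) and with the length trend removed. It also lost it with values as deposited (adjusted p 0.0507) and with the 3' minus 5' covariate (adjusted p 0.0703).

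Anthocyanin genes were mostly lower without passing the test. Of 8 measured, 1 fell and none rose, with a median of -0.67, and in their length classes 5.21% of genes fell. DFR, the dihydroflavonol reductase that commits the pathway to anthocyanins, was at a mean of 8.42 in mbd6 and 6.88 in mbd11 (change -1.54, adjusted p 0.0585), and the malonyltransferase AT5MAT changed by -1.01 (adjusted p 0.0596). AT4G14090 fell by 1.76 (SE 0.39, adjusted p 0.0213), and its call was lost without mbd6 replicate 3, without mbd11 replicate 1 and in 2 other alternatives, among them the 3' minus 5' covariate, with which it changed by -1.08 (adjusted p 0.147).

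Few genes of DNA methylation and its targets were measured, 3 in all. QQS, an orphan gene that affects starch content and whose expression varies with its methylation state, was 5.71, 5.22 and 5.33 in mbd6 and 6.47, 7.38 and 6.81 in mbd11, a change of 1.47 (SE 0.26, adjusted p 0.0104). The wild-type mean was 4.64, below both mutants. Its call was lost without mbd6 replicate 2 or 3 (adjusted p at most 0.0586). DME, a DNA glycosylase that removes 5-methylcytosine, had 3 probe sets, of which one fell by 1.13 (adjusted p 0.00523), and by 0.69 with the 3' minus 5' covariate, while the others, at -0.29 and -0.06, were not called. AT5G24240 changed by 0.03 (adjusted p 0.910), with means of 3.80 and 3.84. Of the phosphate list, SIZ1, the SUMO ligase that controls phosphate starvation responses, fell by 1.94 and 1.26 on its pair of probe sets, and LPR1, a multicopper oxidase that stops root growth at low phosphate, rose by 1.26 (adjusted p 0.00952), a call lost without mbd6 replicate 1 or 3 (adjusted p at most 0.0560).

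Annotated pseudogenes, a class that includes genes derived from transposable elements, which DNA methylation silences, gave few calls. Of 998 measured, 13 were higher in mbd11 and 7 lower, and 38 had a mean level of at least 5. AT1G43240 had the largest rise, from a mean of 4.65 ± 0.34 (SD, n = 3) in mbd6 to 6.48 ± 1.00 (SD, n = 3) in mbd11, with an adjusted p of 0.0358. AT2G07550 rose by 1.32 (adjusted p 0.00379), from 3.26, 3.69 and 3.32 to 4.68, 4.81 and 4.75. AT1G64270 fell by 1.61 (adjusted p 0.00580). Protein-coding genes, with a median level of 5.95 against 3.21 for pseudogenes, had 1422 of 12262 higher and 922 lower. Dim genes of any kind were seldom called. In the dimmest of 5 level classes of all nuclear genes, 0.60% rose and 0.23% fell, and in the next class 2.98% and 3.43%. The few calls among pseudogenes are therefore not a result particular to them.

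Some genes went against the length trend. Among the 2 shortest of the 10 classes, 13 genes fell, and the largest of these falls besides PDF1.2 and PDF1.2b were AT3G16530 (-1.60), AT3G16670 (-1.14), AT2G36220 (-1.18) and AT2G15220 (-1.11), the last on a probe set that may detect related transcripts. AT3G16530 was 9.76, 10.00 and 10.08 in mbd6 and 8.37, 7.88 and 8.78 in mbd11, with wild type at 8.44 to 8.65. Among the 2 longest classes 111 genes rose. YAB5, a YABBY transcription factor that acts on the lower side of leaves, was 6.61, 6.71 and 6.5 in mbd6 and 8.07, 7.83 and 7.81 in mbd11, a change of 1.3 (SE 0.16, adjusted p 0.00323). AT2G48130 rose by 1.99 (SE 0.22, adjusted p 0.00261), from 5.80, 6.10 and 6.17 to 8.0, 8.38 and 7.68. These genes were chosen after their values were seen. AT3G16530, YAB5 and AT2G48130 kept their call under every alternative tried, while AT3G16670, AT2G15220 and AT2G36220 lost it without any one mbd6 array, with adjusted p-values of at most 0.108, 0.0895 and 0.124. With the 3' minus 5' difference as a covariate, AT3G16670 changed by -0.06 (adjusted p 0.891) and AT2G36220 by -0.39 (adjusted p 0.355).

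**Figure D5:**
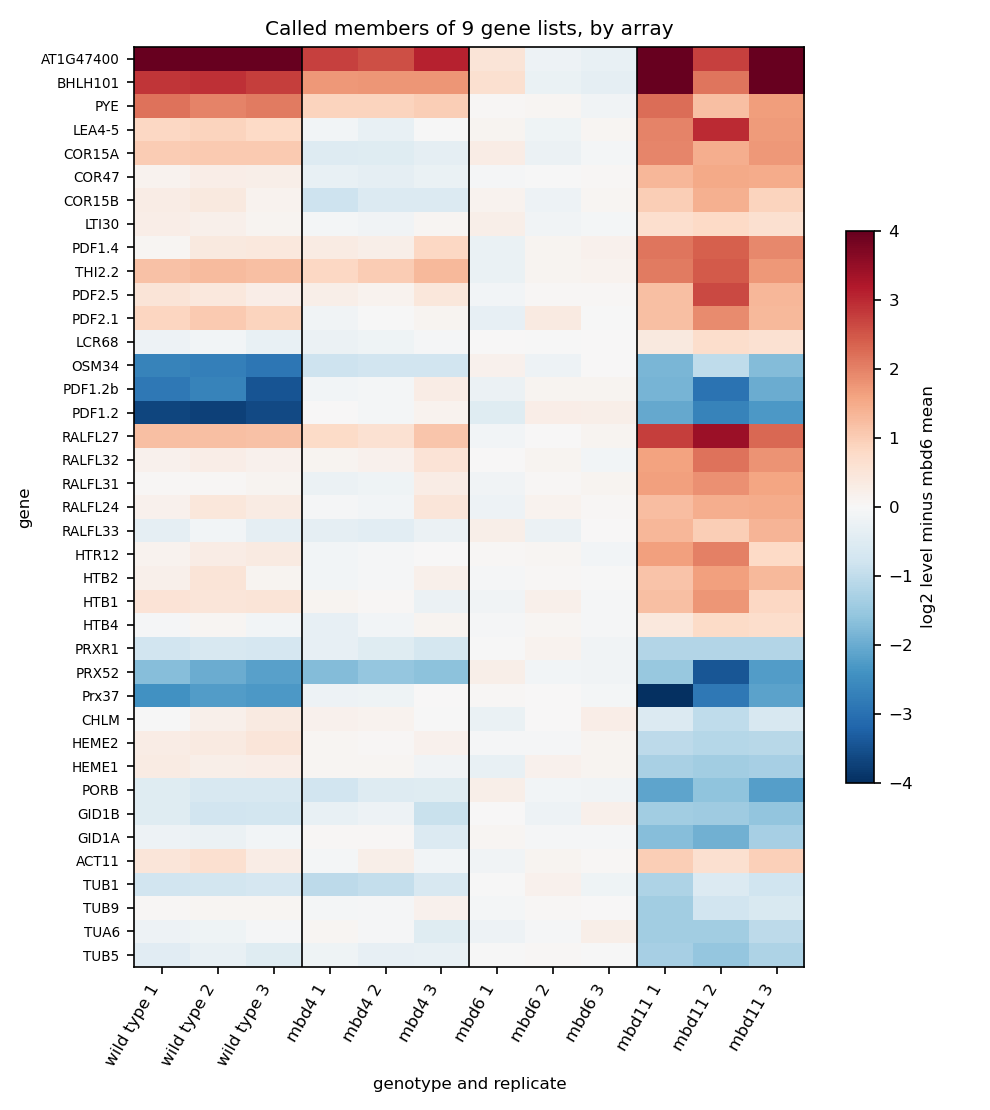
Level on each array relative to the mbd6 mean, in log2 units, for called members of 9 gene lists, with arrays grouped by genotype. The iron genes were near mbd11 in wild type, and PDF1.2, PDF1.2b and OSM34 were lower in wild type than in mbd11, whereas the RALF-like, histone and HEME genes, and the tubulin genes other than TUB1, had wild-type means nearer to mbd6.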

How the data were processed

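Total RNA from whole seedlings was labelled with biotin by a 3' IVT protocol and hybridised to Affymetrix ATH1 arrays, per the labels' protocols. The deposited values are log2 intensities made with RMA in R 2.11, per the submitters' processing notes. RMA corrects background, normalizes between arrays and summarises the probes of a set, and depth is not a limit in the sense of read counts. The deposited arrays still differed in spread. The interquartile range over probe sets was 3.63, 2.83 and 3.58 in mbd11 and between 3.83 and 3.94 in the arrays of the other genotypes. The number of arrays limits the precision.

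The value table holds 22810 probe sets. The 64 AFFX control probe sets were left out of the tests and used only for the 3' minus 5' difference and the rRNA level. The other 22746 were quantile-normalized over the 12 arrays and fitted with limma (lmFit and eBayes) on the 6 arrays compared, with 4 residual and 3.27 prior degrees of freedom, and again without mbd11 replicate 2 (3 and 4.97). The fit used no other arrays because the spread of mbd11 was wider. Genes were named from the platform annotation and the RefSeq table of TAIR10.1: 13513 probe sets had 1 gene, 503 several and 8730 none, 13484 matched the table, and 13415 were nuclear. Of 13264 nuclear genes 11798 go by locus only.

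A gene with several probe sets is shown by the called one with the larger smaller change of the pair of fits, otherwise by the brightest, and list medians take the brightest. Named genes are the 12 largest rises and 12 largest falls by that rank, up to 4 called members per list, AT1G47400, BHLH101 and PYE. List members outside that rule, and pseudogenes and genes against the length trend, were named after their values were seen. The members and lists were chosen with earlier results of these data known. Families named by a shared symbol (RALF-like, aldehyde dehydrogenases and others) were added after the annotation was seen. A list's share of genes of the same length is the percent called in the length classes of its members, averaged over members. It takes in dim genes, which were seldom called, and is not matched for level. Symbols that only resemble a list's prefix were removed.

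Alternatives were other scalings, fits on 12 arrays, array weights, a replicate block, a minimum mean of 5, a floor of 4, an intensity trend and leaving out each array. Removing a lowess trend on gene length (span 0.3) and testing only nuclear probe sets of 1 gene were chosen after seeing the data. Fits ran under R 4.3.3 with limma 3.58.1. Tables were made in Python 3.11.15, using numpy 2.4.6 and pandas 2.3.3, and plots with matplotlib 3.10.9.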

Additional observations from a re-analysis of the deposited data

How the results depend on the processing

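The number of called probe sets was 4411 and of called nuclear genes 2364. A fit on all 12 arrays, which pools the wider spread of mbd11 with that of the other genotypes, gave 7988 and 4021. Leaving out 1 array at a time gave 1436 to 7579 probe sets and 753 to 2582 nuclear genes. The lowest counts came without mbd6 replicate 1 (1619 and 852), 2 (1542 and 828) or 3 (1436 and 753), and 7579 came without mbd11 replicate 2, for which no separate count of genes exists because both fits are then the same. Testing only nuclear probe sets of 1 gene gave 2316 probe sets, and removing the length trend from these gave 1993, both from fewer probe sets tested. The replicate block gave 3418 probe sets and 1808 genes. Same-numbered replicates of the mutants deviated with correlations of 0.0596, 0.0851 and -0.0167, and pairs with different numbers with -0.0883 to 0.0727. With 3 arrays per genotype, these values cannot show whether same-numbered samples were handled together. Values as deposited gave 5069 probe sets, 44.2% of them higher in mbd11, with a median over all probe sets of 0.13, and median-centred values gave 5259, 57.1% higher, with a median of 0.26. The other alternatives changed the counts by less than 1.5 times. Of 114 named genes none reversed under 18 alternatives, and 63 were called under every one. The other 51 lost their call in at least 1, most often without an mbd6 array, and the cause was not tested. With the 3' minus 5' difference as a covariate, 12 of 131 called genes among the largest changes, the list members and the genes against the length trend had changes over 1.5 times smaller. Mbd4 replicate 3 weighs heavily in that fit, also where calls were kept. Without any 1 mbd6 array, none of the 131 changes moved over 1.5 times. Medians of the 34 lists with at least 3 measured members changed sign 37 times under the alternatives. The 701 list medians computed there also include lists with fewer measured members, 39 lists in all, so 37 is not a share of 701.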

Other observations

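Chloroplast-encoded genes were measured by 69 probe sets, of which 18 were called lower in mbd11 than in mbd6 and 6 called higher. Over all probe sets, 9.61% were called lower and 9.78% higher. The median change of the chloroplast probe sets was -0.27, and -0.19 without mbd11 replicate 2. Chloroplast transcripts mostly lack poly(A) tails, and the labelling starts from such tails, so these levels are not levels of all chloroplast RNA. The 25S ribosomal RNA control, 1 probe set, was 5.25 to 5.43 in mbd11, 6.22 to 6.83 in mbd6 and 5.64 to 7.90 in wild type.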
